A study of Mus musculus with 2 samples.

Results

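ITL6GL, the group annotated as intratelencephalic excitatory neurons of cortical layer 6, held 1305 of the 16314 nuclei that were profiled by single-nucleus ATAC-seq (snATAC-seq) in mouse primary motor cortex (dissection MOp-2). Its members are all nuclei that carry this name in the annotation deposited by the authors, 573 of 7440 in replicate 1 and 732 of 8874 in replicate 2. Both libraries were made on the droplet-based 10x platform and represent 1 condition, tissue of adult male C57BL/6J mice aged 56 to 63 days, for which no treatment is listed. The methods describe tissue pooled from several mice for each replicate, without saying so separately for the 10x libraries, so that differences between the libraries may hold technical as well as biological spread. ITL6GL was set beside CTGL, the corticothalamic neurons of the same layer (1637 nuclei), and beside ITL5GL, the intratelencephalic neurons of layer 5 (1422 nuclei).

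Intratelencephalic neurons send their axons within the telencephalon, to other cortical areas, to the opposite hemisphere through the corpus callosum and to the striatum. Corticothalamic neurons lie among them in layer 6 and project to the thalamus, so that the layer holds output cells of distinct classes side by side. In snATAC-seq the transposase Tn5 cuts accessible DNA inside single nuclei, and each nucleus is known by the fragments that carry its barcode. The study lists Sulf1, which encodes an extracellular sulfatase that edits heparan sulfate, among the markers of ITL6GL. In mm10 (GRCm38, GENCODE M21), Sulf1 spans 12692277 to 12861192 on the plus strand of chromosome 1 and is annotated as protein-coding. The tables analysed here hold no value for any gene, so the name ITL6GL could not be checked against Sulf1 and was used as deposited.

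The libraries held 48179226 and 55337466 unique fragments in replicates 1 and 2. Among all nuclei, 105 barcode sequences occurred in both libraries. ITL6GL was the name of 7 of these in replicate 1 and of 10 in replicate 2, and 1 barcode was named ITL6GL in both. Shares are given per library with exact Clopper-Pearson 95% intervals, which cover counting error only, and as the mean with its SD over the 2 libraries. Tests giving p-values were not run, because nuclei of 1 library are not replicates and 1 condition leaves nothing to permute.

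ITL6GL was a mid-sized glutamatergic group whose shares of all nuclei and of glutamatergic nuclei differed little between the libraries. Its share of all nuclei was 7.70% in the first library (7.11 to 8.33) and 8.25% in the second (7.68 to 8.84), or 7.98% ± 0.387 (SD, n = 2 libraries). Within the glutamatergic class its share was 14.8% (13.7 to 15.9) and 15.6% (14.5 to 16.6). The log2 ratio of its share in replicate 2 over replicate 1 was 0.10 in all nuclei (counting interval -0.05 to 0.25) and 0.08 in glutamatergic nuclei (-0.07 to 0.22), and both intervals included 0. The share of all nuclei moved with the fragment minimum and was 12.2% among nuclei with at least 5000 fragments, whereas the share of glutamatergic nuclei moved by less than the SD between libraries.

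Among the 4 intratelencephalic groups, ITL6GL took 19.3% of nuclei in replicate 1 (17.9 to 20.8) and 22.0% in replicate 2 (20.6 to 23.5). With this denominator the log2 ratio between the libraries was 0.19, and its counting interval of 0.05 to 0.33 excluded 0. ITL5GL had a ratio of 0.12 over the same nuclei (-0.01 to 0.25). ITL23GL, the upper-layer group that is the largest of the 4, had -0.14 (-0.23 to -0.05). ITL4GL had -0.07 (-0.22 to 0.08). Within the projection class, a larger share of ITL6GL in replicate 2 stood beside a smaller share of the upper-layer group. Shares of the 4 groups add up to a fixed total, so that a rise in any group must be met by a fall elsewhere. In the order of the 7 glutamatergic groups by nuclei, ITL6GL stood 5th in replicate 1 and 4th in replicate 2. It changed places with ITL4GL, whose share of glutamatergic nuclei was 15.0% in replicate 1 (13.9 to 16.2), within counting error of ITL6GL, and 13.2% in replicate 2 (12.3 to 14.2).

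Relative to the other output cells of layer 6, ITL6GL was less abundant in both libraries over nuclei of all depths, and the distance differed between them. The direction turned among nuclei with 10000 or more unique fragments, where ITL6GL outnumbered CTGL by 185 to 116 in replicate 1 and by 205 to 174 in replicate 2. There were 0.882 ITL6GL nuclei for each CTGL nucleus in replicate 1 (counting interval 0.788 to 0.986) and 0.742 in replicate 2 (0.674 to 0.816), or 0.812 ± 0.0989 (SD, n = 2 libraries). The log2 change of this ratio from replicate 1 to replicate 2 was -0.25 (-0.46 to -0.04). CTGL made up 16.7% of glutamatergic nuclei in replicate 1 and 21.0% in replicate 2, a larger step than that of ITL6GL over the same nuclei. For each ITL5GL nucleus there were 0.894 ITL6GL nuclei in replicate 1 (0.799 to 1.00) and 0.937 in replicate 2 (0.847 to 1.04), or 0.916 ± 0.0306. Here the log2 change was 0.07 (-0.15 to 0.29). The order of ITL6GL and ITL5GL lay within counting error in both libraries.

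**Figure D1:**
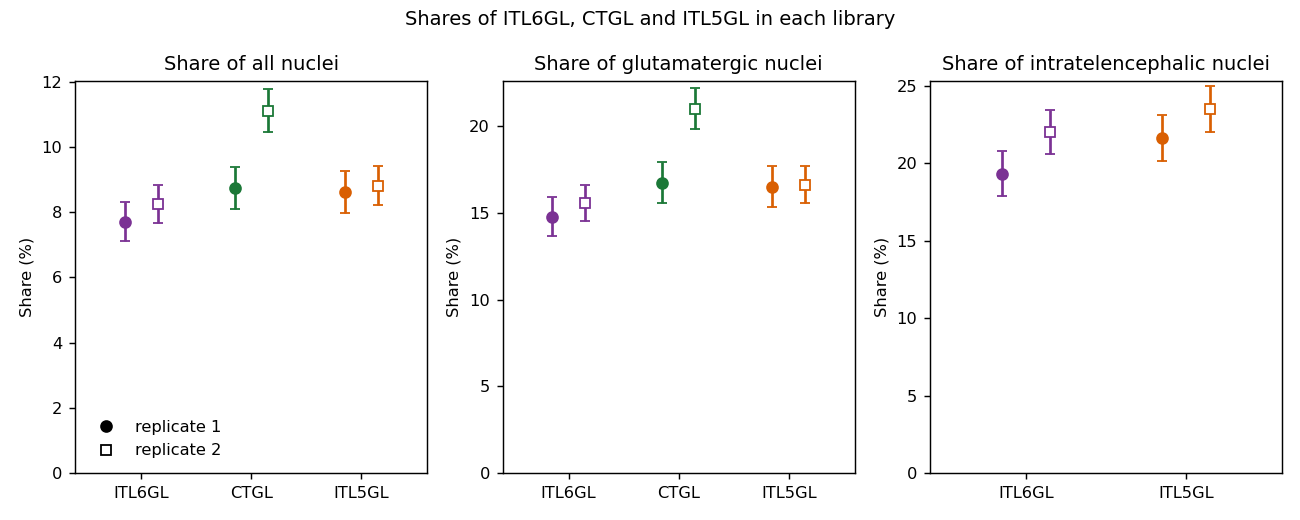
Share (%) of ITL6GL, CTGL and ITL5GL among all nuclei and glutamatergic nuclei, and of ITL6GL and ITL5GL among intratelencephalic nuclei, with bars for the exact 95% interval of each share (counting error), filled for replicate 1 and open for replicate 2. The intervals of ITL6GL overlap between the libraries in each panel, and those of CTGL, at 16.7% and 21.0% of glutamatergic nuclei, do not. Among intratelencephalic nuclei the overlap is narrow, and the log2 ratio of the ITL6GL share between libraries was 0.19 (0.05 to 0.33).

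ITL6GL nuclei made up a larger share of the unique fragments than of the nuclei in both libraries. In replicate 1 their unique fragments ranged from 1062 to 21699 with a median of 8843 and quartiles of 6975 and 10654. In replicate 2 they ranged from 1001 to 31673 with a median of 7868 and quartiles of 5530 and 10326. The median over the libraries was 8355 ± 690 (SD of the medians, n = 2 libraries). These fragments amounted to 10.7% of all unique fragments of replicate 1 and to 10.8% of those of replicate 2, above the 7.70% and 8.25% of nuclei that ITL6GL contributed. Within the glutamatergic class the group held 15.4% and 15.6% of the fragments, close to its share of nuclei.

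By depth ITL6GL lay between its comparison groups in both libraries. Its median was 1.16 times that of CTGL in replicate 1 and 1.11 times in replicate 2 (1.14 ± 0.0399, SD, n = 2 libraries), where CTGL had 7601 and 7107 unique fragments. Against ITL5GL, which had 9370 and 8370, the ratio was 0.944 and 0.940 (0.942 ± 0.00268). Both ratios departed from 1 by more than their SD between libraries. An SD from 2 values is itself poorly determined, and no interval was computed for the medians. Under the other processing settings tried, the ratio to ITL5GL lay from 0.929 to 0.951. The quartile ranges of the 3 groups overlapped widely. In the order of glutamatergic medians ITL6GL stood 3rd in replicate 1, below the pyramidal tract neurons (PTGL) and ITL5GL. It stood 4th in replicate 2, where ITL23GL had 7874.

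Replicate 2 was the shallower library for ITL6GL. Its median was 0.890 of that in replicate 1, the lowest of the 7 glutamatergic groups and next to ITL5GL with 0.893, while CTGL had 0.935 and ITL4GL 0.981. The spread was also wider in replicate 2, as in every glutamatergic group. On the log10 scale the SD over ITL6GL nuclei was 0.223, against 0.189 in replicate 1. For ITL5GL it was 0.233 against 0.192, and for CTGL 0.218 against 0.191. Of the ITL6GL nuclei, 9.60% had fewer than 5000 fragments in replicate 1 (7.31 to 12.3) and 19.0% in replicate 2 (16.2 to 22.0). The same shares were 15.2% and 25.6% in CTGL and 7.33% and 15.2% in ITL5GL. At the other end, 2 and 7 ITL6GL nuclei had more than 20000 fragments, and 1.40% and 3.55% of the group exceeded the group's own median by more than 2 times. Doublet scores were not analysed here.

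**Figure D2:**
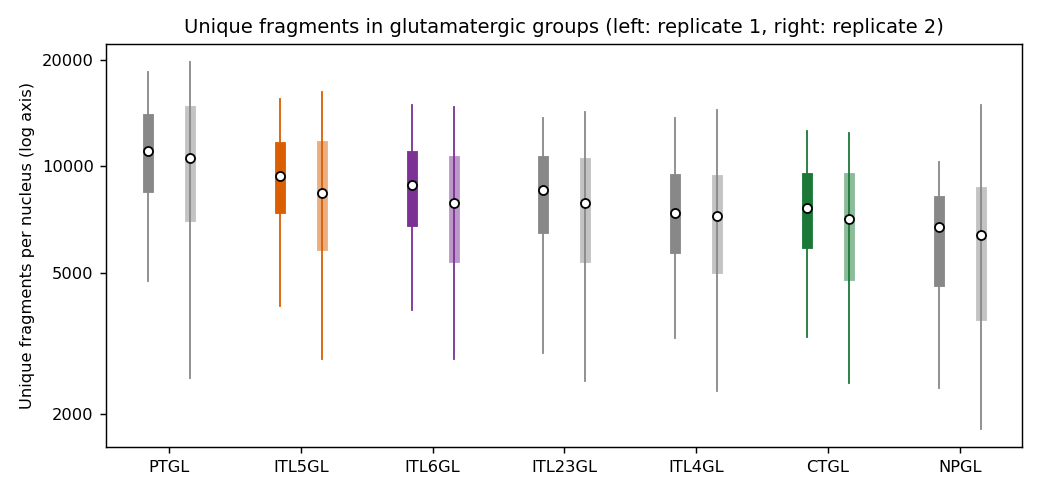
Unique fragments per nucleus (log axis) in the 7 glutamatergic groups, with white points for medians, thick bars for quartiles and thin lines from the 5th to the 95th percentile of nuclei, replicate 1 on the left and replicate 2 on the right of each pair. The ITL6GL medians of 8843 and 7868 lie below those of ITL5GL and above those of CTGL.

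The share of ITL6GL within the glutamatergic class changed less with depth than that of CTGL or ITL5GL. In replicate 2 its share was 14.5% of glutamatergic nuclei with 1000 to below 5000 unique fragments (12.3 to 16.8), 15.8% from 5000 to below 7500 (13.9 to 18.0), 15.8% from 7500 to below 10000 (13.8 to 18.0) and 15.9% from 10000 upwards (13.9 to 18.0). In replicate 1 the shares in the same ranges were 11.9% (9.12 to 15.2), 12.0% (9.99 to 14.2), 16.1% (14.1 to 18.1) and 16.8% (14.6 to 19.1). The ITL6GL share was thus nearly level in replicate 2 and rose with depth in replicate 1.

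CTGL fell over these ranges from 21.5% to 10.5% in replicate 1 and from 26.3% to 13.5% in replicate 2. ITL5GL rose from 10.2% to 23.7% and from 12.4% to 21.4%. Below 5000 fragments CTGL nuclei outnumbered ITL6GL nuclei by 99 to 55 and by 253 to 139, the opposite of the order from 10000 fragments upwards. The abundance of ITL6GL relative to CTGL thus differed with the depth of the nuclei that were counted. This is the difference in depth between these groups expressed as counts, and not a separate result.

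The libraries were also compared within ranges of depth. For ITL6GL the counting intervals of all ranges overlapped, and whether the difference between libraries changed with depth was not tested. In nuclei with 5000 to below 7500 fragments the log2 ratio of the ITL6GL share, replicate 2 over replicate 1, was 0.40 (counting interval 0.09 to 0.71). It was 0.28 below 5000 (-0.14 to 0.70), -0.02 from 7500 to below 10000 (-0.28 to 0.24) and -0.08 above (-0.34 to 0.18). ITL5GL had the same outline, with 0.51 (0.19 to 0.82) from 5000 to below 7500 and -0.15 (-0.36 to 0.07) from 10000. For CTGL the ratio was 0.09 (-0.13 to 0.31) from 5000 to below 7500, 0.43 (0.20 to 0.66) from 7500 to below 10000 and 0.36 (0.04 to 0.68) above. The median of every glutamatergic group was lower in replicate 2, and the part of this shift in these ratios was not tested.

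**Figure D3:**
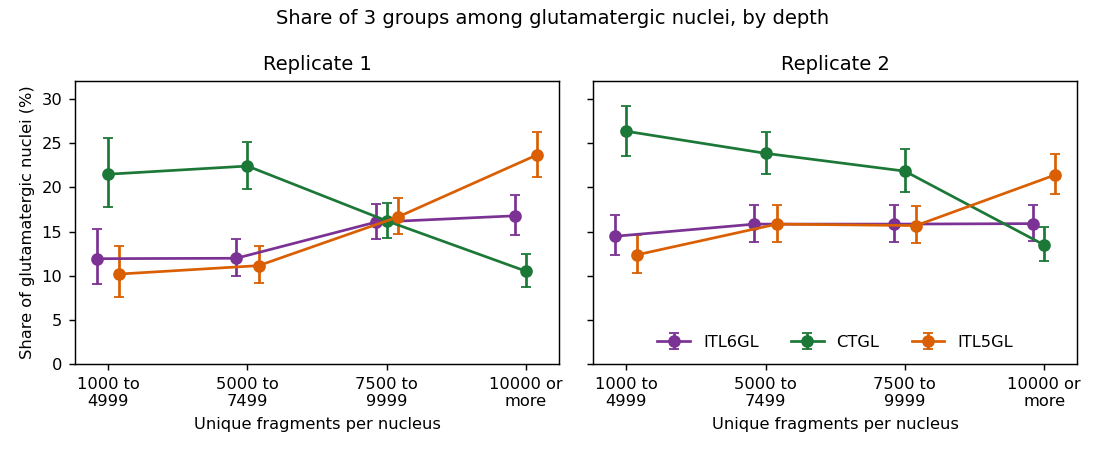
Share (%) of glutamatergic nuclei named ITL6GL, CTGL or ITL5GL in 4 ranges of unique fragments per nucleus, 1 panel per library, with exact 95% binomial intervals. CTGL declines from 21.5% to 10.5% and from 26.3% to 13.5%, ITL5GL rises, and ITL6GL stays between 11.9% and 16.8%.

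The deposited counts follow each nucleus from total fragments (TN) through uniquely mapped (UM) and properly paired (PP) to unique fragments (UQ). Median total fragments of ITL6GL were 10740 in replicate 1 and 9579 in replicate 2, uniquely mapped 10300 and 9243, and properly paired 10244 and 9184. The ratio of ITL6GL to CTGL medians was 1.17 in replicate 1 and 1.10 in replicate 2 at each of these 3 steps, and that to ITL5GL lay from 0.947 to 0.949 and from 0.936 to 0.938. The position of ITL6GL between the 2 groups was thus already present in the total fragments. Mitochondrial counts were listed as 0 in every ITL6GL nucleus.

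A high proportion of ITL6GL fragments mapped uniquely, with a median over nuclei of 96.19% in replicate 1 and 96.34% in replicate 2 (quartiles 95.98 and 96.40, and 96.09 and 96.58). These were the second highest and the highest of the 7 glutamatergic medians. ITL5GL, with 96.20% and 96.33%, differed from ITL6GL by -0.0102 and 0.0106 percentage points in the direction ITL6GL minus ITL5GL, less than the SD of either group's median between libraries. CTGL was lower, with 96.04% and 96.10%, and ITL6GL exceeded it by 0.157 and 0.241 percentage points (0.199 ± 0.0596, SD, n = 2 libraries). This held at matched depth, where the ITL6GL median was above that of CTGL in 8 of 8 combinations of library and fragment range, by 0.164 to 0.332 percentage points. Against ITL5GL it was above in 4 of 8. In this measure ITL6GL was thus nearer to ITL5GL than to CTGL. ITL4GL, of the same projection class, had 96.09% and 96.22%, below ITL6GL in both libraries. A few nuclei stood apart, as 1 ITL6GL nucleus of replicate 1 and 10 of replicate 2 had less than 94% uniquely mapped fragments, with a minimum of 90.2% in the latter.

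Properly paired shares were near 99.5% throughout and hardly varied, with medians of 99.47% and 99.50% for ITL6GL. Duplicates made up a median of 13.6% of properly paired ITL6GL fragments in replicate 1 and 14.6% in replicate 2. This gap between libraries was larger than any among the 3 groups. ITL6GL exceeded ITL5GL by 0.120 and 0.0967 percentage points (0.108 ± 0.0165, SD, n = 2 libraries), although ITL5GL was the deeper group, and it was above ITL5GL in 8 of 8 combinations of library and fragment range, by 0.0275 to 0.224 points. Against CTGL the sign differed between libraries (0.0144 and -0.0208), and ITL6GL was above in 2 of 8 combinations. Within ITL6GL the duplicate share rose weakly with unique fragments (Spearman's rho 0.28 over 573 nuclei and 0.32 over 732), a description over nuclei that share a library, in which both measures use the same counts.

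In the deposited UMAP embedding, ITL6GL formed a compact field that bordered ITL5GL and lay far from CTGL. Of the 30 nearest nuclei of an ITL6GL nucleus, 95.9% were ITL6GL in replicate 1 and 96.2% in replicate 2. ITL5GL provided 2.97% and 2.39% of these neighbours, ITL4GL 0.745% and 1.02%, and CTGL 0.128% and 0.118%. The intratelencephalic neuron of layer 5 was thus the chief neighbour of the layer 6 group. The names and the embedding derive from the same accessibility profiles, and distances between separate fields of a UMAP are not to scale, so these values describe the annotation and are not independent of it.

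The contact with CTGL came from single nuclei. In each library 1 nucleus named CTGL lay inside the ITL6GL field, with 7708 and 2334 unique fragments, and no other CTGL nucleus had an ITL6GL nucleus among its 30 nearest. With at least 5000 fragments, the share of CTGL among ITL6GL neighbours was 0.0723%, down from 0.123% (mean of both libraries). ITL5GL neighbours were more frequent and were concentrated at the border between the fields. They were 23.7% and 14.5% of the neighbours of members from 5 upwards on umap2. For members from 4 to 4.5 they were 0.885% and 1.23%. From 3.5 to 4 they were 0.0203% and 0.0163%, and below 3.5 there were none. At least 1 ITL5GL neighbour was found for 17.1% of ITL6GL nuclei in replicate 1 and 16.9% in replicate 2. Seen from the other side, 7.18% and 6.27% of ITL5GL nuclei had an ITL6GL neighbour.

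ITL6GL nuclei were less often surrounded by their own name alone than those of the comparison groups. All 30 neighbours were ITL6GL for 70.5% of members in replicate 1 (66.6 to 74.2) and 70.2% in replicate 2 (66.8 to 73.5). For ITL5GL the values were 89.5% (86.9 to 91.8) and 92.1% (89.9 to 93.9), and for CTGL 94.0% (91.9 to 95.7) and 94.3% (92.7 to 95.7). Nuclei of other names were scattered through the field. Within the range of coordinates that ITL6GL spans, 47 nuclei of other names had more than 15 ITL6GL nuclei among their 30 nearest, 18 in replicate 1 and 29 in replicate 2. Of these, 28 were named ITL5GL and 13 ITL4GL, the remainder being 2 CTGL, 2 PTGL, 1 ITL23GL and 1 nucleus of the endothelial group VEC. Without the limit on coordinates, VEC was represented more often. More than 15 ITL6GL neighbours were found for 4 of 145 VEC nuclei in replicate 1 (2.76%) and 8 of 247 in replicate 2 (3.24%). These few nuclei gave the highest percentage of any group in either library, and 0 and 1 of them lay within the coordinate range. The ITL4GL nuclei within the coordinate range were deep, with medians of 10496 and 10043 unique fragments in replicates 1 and 2, where all ITL4GL nuclei had 7393 and 7249. The ITL5GL nuclei within it had medians of 8046 and 6128, below the 9370 and 8370 of their whole group.

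**Figure D4:**
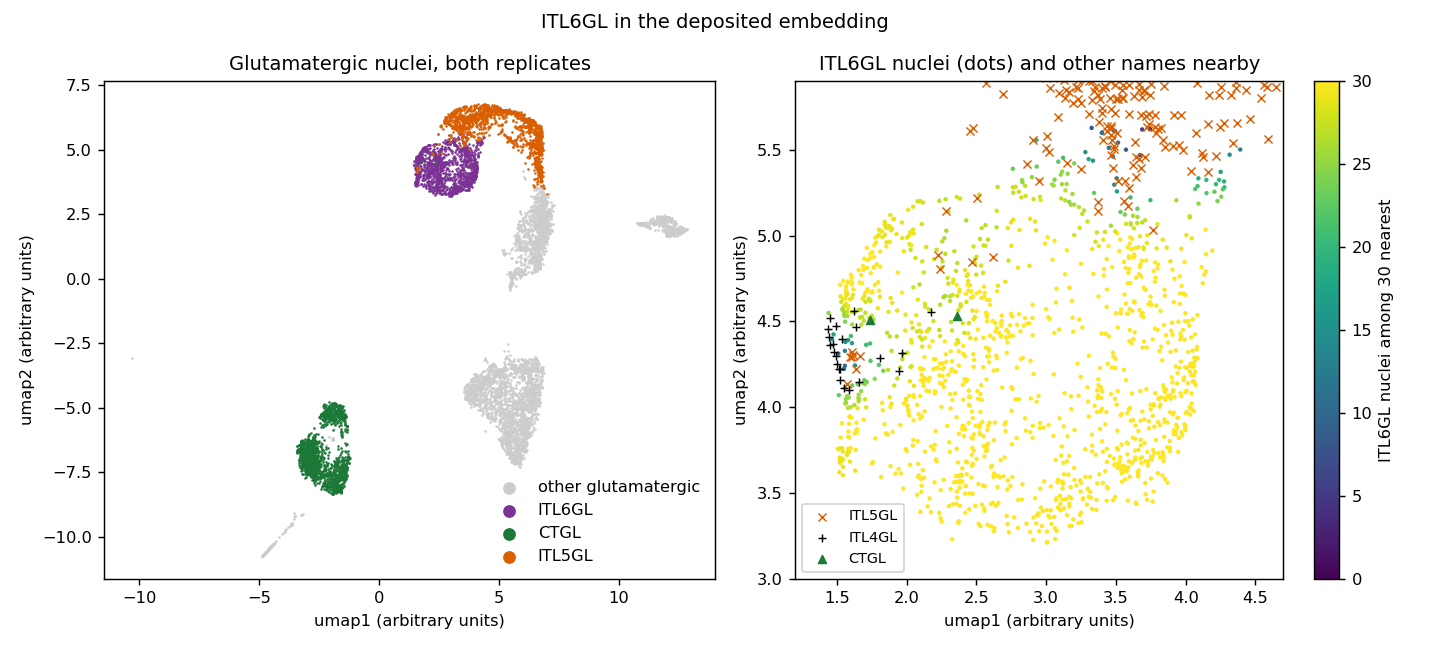
Left, glutamatergic nuclei of both replicates in the deposited embedding (umap1 and umap2, arbitrary units) with ITL6GL, CTGL and ITL5GL in colour. Right, the ITL6GL field, each dot coloured by how many of its 30 nearest nuclei are ITL6GL, with ITL5GL (crosses), ITL4GL (plus signs) and CTGL (triangles) nuclei; low counts lie along the upper border with ITL5GL and in a pocket at the left edge.

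Members in a minority among their neighbours were few and sat in 2 places. Fewer than 15 of the 30 nearest nuclei were ITL6GL for 9 of 573 members in replicate 1 (1.57%, 0.721 to 2.96) and for 11 of 732 in replicate 2 (1.50%, 0.752 to 2.67). Of these, 8 and 7 lay above 5 on umap2, at the ITL5GL border, with 16 to 27 ITL5GL neighbours and no ITL4GL neighbour. In replicate 1 these border nuclei were deep, at 10651 to 15387 unique fragments, and in replicate 2 they were not, at 1728 to 12036. The other 1 and 4 lay below 2 on umap1, in a pocket at the left edge where 10 to 12 of their neighbours were ITL4GL and 4 to 7 were ITL5GL.

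The 2 libraries were evenly mixed within ITL6GL. Among the 30 nearest ITL6GL nuclei, 49.4% came from the other library, where even mixing gives 49.3%, a ratio of 1.00. The ratio was 0.978 for ITL5GL and 0.994 for CTGL. Along umap1, members below 2 made up 17.3% of ITL6GL in replicate 1 (14.3 to 20.6) and 18.3% in replicate 2 (15.6 to 21.3). Those from 2 to 3 made up 40.7% (36.6 to 44.8) and 36.3% (32.8 to 39.9), and those from 3 upwards 42.1% (38.0 to 46.2) and 45.4% (41.7 to 49.0). All 3 pairs of intervals overlapped. ITL4GL neighbours were concentrated at the left edge, with 3.74% and 4.95% of the neighbours of members below 2 on umap1 and none from 3 upwards. The median umap1 of ITL4GL itself was 6.60 and 6.61, on the other side of ITL6GL. The contact at the left edge thus came from ITL4GL nuclei that lay apart from most of their group.

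Depth varied across the ITL6GL field in the same direction in both libraries. Median unique fragments were 8145 in replicate 1 and 6469 in replicate 2 below 3.5 on umap2, 8146 and 7314 from 3.5 to 4, 8758 and 7714 from 4 to 4.5, 9887 and 8289 from 4.5 to 5, and 9758 and 8840 from 5 upwards. The share of nuclei with fewer than 5000 fragments fell from 13.6% to 1.72% between the lowest and the highest range in replicate 1, and from 27.4% to 8.60% in replicate 2. Over nuclei, Spearman's rho between unique fragments and umap2 was 0.30 in replicate 1 (573 nuclei) and 0.20 in replicate 2 (732 nuclei), and with umap1 it was -0.11 and -0.10. These are descriptions over nuclei of the same library. The side of greater depth was the side of ITL5GL, which took 23.7% and 14.5% of neighbours above 5 on umap2 and none below 3.5.

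ITL6GL nuclei with at least 1 ITL5GL neighbour had a median of 10431 unique fragments in replicate 1 (98 nuclei) and 8485 in replicate 2 (124 nuclei), against 8572 and 7683 in members with none. Only 2 of the 98 had fewer than 5000 fragments in replicate 1, while 19 of the 124 did in replicate 2. Among ITL5GL nuclei the direction was the opposite, with a small gap in replicate 1. Those with an ITL6GL neighbour had medians of 9206 (46 nuclei) and 7618 (49 nuclei), against 9370 and 8448 in those with none. Of the 46 and 49, 11 and 18 had mostly ITL6GL neighbours, with medians of 7926 and 6128. Whether the ITL5GL nuclei on their own side of the border differed in depth was not tested. Members with an ITL4GL neighbour had medians of 9797 and 8194, against 8767 and 7822 without. The part of depth in the placement of these nuclei was not tested.

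**Figure D5:**
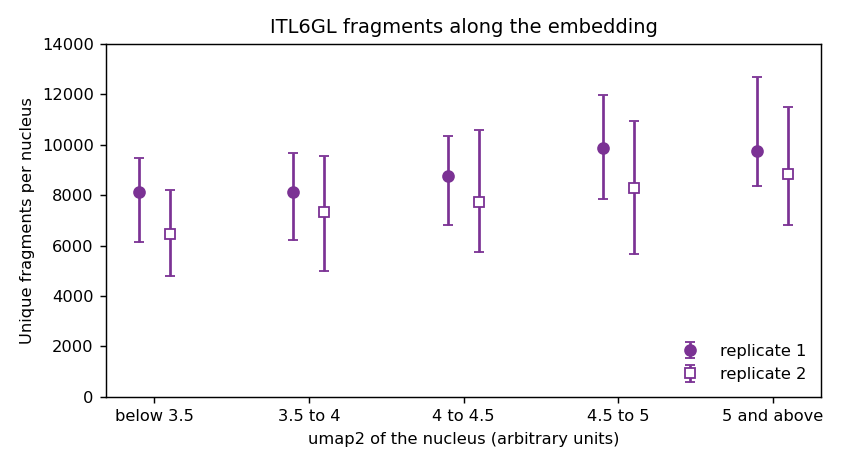
Unique fragments per ITL6GL nucleus (median with quartiles over nuclei) in 5 ranges of umap2 (arbitrary units), filled for replicate 1 and open for replicate 2. Medians go from 8145 and 6469 in the lowest range to 9758 and 8840 in the highest, on the side of ITL5GL, and the quartiles of neighbouring ranges overlap.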

How the data were processed

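snATAC-seq libraries of the MOp-2 dissection were analysed as 2 replicates of 1 condition, with groups and replicate numbers from the sample titles. The authors deposited whole-number counts of fragments per nucleus, log10 values (the log10 of unique fragments plus 1), embedding coordinates and an annotated name. The methods describe alignment with bwa to mm10, a filter for properly paired fragments under 1000 bp with mapping quality above 30, and removal of duplicates by SnapTools. Nuclei needed at least 1000 fragments and a TSS enrichment above 10, and doublets and barcode collisions were then discarded. Cell Ranger ATAC, BWA, mm10 and GRCm38 are named in the submitters' processing notes, with versions not given in the sources used here. Count columns were read by the names SnapTools uses.

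Members were the rows annotated ITL6GL. The members, comparison groups and lists were chosen with earlier results of these data known. Shares had exact Clopper-Pearson intervals, and ratios had counting intervals from the log method, all at 95%. Mapping shares were medians over nuclei of UM over TN, PP over UM, and 1 minus UQ over PP. Neighbours were the 30 nearest nuclei in umap1 and umap2 over both libraries. CTGL and ITL5GL were always named, and another group where it took at least 1% of ITL6GL neighbours or stood next to ITL6GL in an order. Fragment ranges, ranges of umap1 and umap2, and other names inside the ITL6GL field were chosen after the values were seen, and PTGL, ITL23GL and VEC were named there on that basis. Neighbour and interval functions were tested on simulated data. The tools were scikit-learn 1.9.0, scipy 1.17.1, pandas 2.3.3 and numpy 2.4.6 under Python 3.11.15, with matplotlib 3.10.9 for plots. TSS enrichment of single nuclei was not used here.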

Additional observations from a re-analysis of the deposited data

How the results depend on the processing

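Settings tried were a minimum of 2000 or of 5000 fragments, omission of the deepest 5% of nuclei, each library alone, pooled nuclei, 10 or 100 neighbours, neighbours from the own library, geometric means and summed fragments. Leaving out barcodes found in both libraries was chosen after seeing the data. Of 141 values, 118 moved by less than the SD between libraries and 23 moved by more. For log2 ratios the limit was the counting interval, and for mixing the SD over the 7 glutamatergic groups. A reversal was defined only for the log2 ratios, and 0 of these were reversed. The cause of the larger moves was not tested. The ITL6GL share of all nuclei was 8.77% with at least 2000 fragments and 12.2% with at least 5000. ITL6GL nuclei per ITL5GL nucleus were 0.884 with at least 5000 fragments and 0.956 without the deepest nuclei. The ratio of their median fragments was 0.934 with at least 5000, 0.951 without the deepest, 0.929 in pooled nuclei and 0.931 as geometric means, beside 0.942. Own-name neighbours of ITL6GL were 96.4% with 10 neighbours, 94.8% with 100 and 95.4% within the own library. ITL5GL neighbours were 3.59% with 100 and 3.18% within the own library. CTGL neighbours were 0.0723% with at least 5000 fragments, 0.141% without the deepest nuclei, 0.174% with 100 neighbours, 0.143% within the own library and 0.130% without shared barcodes. Members in a minority among their neighbours were 1.43% with at least 2000 fragments, 1.17% without the deepest nuclei, 2.02% with 10 neighbours, 1.66% with 100 and 1.37% within the own library. The share of glutamatergic nuclei stayed within 1 SD in every setting run. Either library by itself gave values within 1 SD of the mean, which holds for any pair of values. The 15 values from each library alone are among the 118. No paired analysis was possible because both libraries belong to the same condition.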
